A study of Mus musculus with 4 samples.

Results

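The genes described here are the ligands, receptors, regulators and core components of Wnt signalling, in RNA of THY1-positive spermatogonia from mouse testis. They were chosen by symbol alone: the Wnt and Fzd families, Lrp5, Lrp6, Porcn, Wls, the Rspo, Lgr4 to Lgr6, Dkk, Sfrp, Dvl, Axin and Tcf/Lef genes, Apc and Ctnnb1. All 59 symbols of this kind had an entry among the 43998 of the deposited table, and 36 had in at least 1 genotype an RPKM (reads per length of transcript, scaled to depth) of 1 or more. The control group comprised 2 libraries and the mutant group 2 libraries, all from C57BL/6 males at postnatal day 4, with testis cells enriched on magnetic beads against CD90.2 (THY1). The mutant is labelled only as having germ cell RA signalling changed (RA, retinoic acid). The labels name neither the modified gene nor a driver line, and do not say whether libraries came from separate animals.

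Wnt proteins are secreted, lipid-modified ligands that bind Frizzled receptors together with LRP5 or LRP6. In the canonical branch this halts a destruction complex built on APC and AXIN, so that beta-catenin (Ctnnb1) accumulates and acts in the nucleus with LEF1 and TCF proteins. R-spondins strengthen the signal through LGR receptors, while Dickkopf and secreted Frizzled-related proteins restrain it. In the testis, Wnt ligands from supporting cells are known to act on undifferentiated spermatogonia.

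Each genotype had 1 combined RPKM value per gene, made by the authors from both libraries, which leaves no replicate error to compare with and allows no test. Differences are given as the plain ratio of RPKM values, or as log2((mutant RPKM + 1) / (control RPKM + 1)), which understates differences of low genes. A gene is counted as past 2-fold on the latter scale. The low values stepped in whole reads, at a depth near 56.0 M control and 57.3 M mutant reads if no further scaling entered. Read numbers below are approximations from those steps and the median length of a gene's annotated protein-coding transcripts, and the 95% intervals of ratios from them (exact binomial) cover counting error only.

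The samples held RNA of more than germ cells, and the balance differed between the genotypes. Of 22 germ cell markers, 21 reached an RPKM of 1, and all 21 had higher mutant values. The summed level of the 22 was 1292 RPKM in control and 1875 in mutant. All marker lists were chosen with earlier results of these data known, so such counts are no independent support. The summed Sertoli marker level was 1221 RPKM in control and 573 in mutant over 21 markers, with 17 of the 18 that passed the filter in both genotypes lower. Summed levels were 871 and 304 RPKM for 10 Leydig markers, 1551 and 654 RPKM for 11 interstitial fibroblast markers, 175 and 78.4 RPKM for 8 peritubular myoid markers and 4502 and 1623 RPKM for 11 macrophage markers. Of the fibroblast sums, 1281 RPKM in control and 504 in mutant came from Col3a1, whose entry pools several symbols. Endothelial markers stood at 97.7 and 95.9 RPKM, with 5 of 11 above 0 and 6 below. Of these sums, 57.4 and 59.8 RPKM came from Egfl7, whose entry also pools several symbols. No marker of these lists was at 0 in both genotypes, and fewer cells of a type cannot be told apart from less RNA per cell. Rescaling the mutant values until germ cell markers had a median difference of 0 was therefore tried as an alternative; it lowers every mutant value by 1 factor. How far these shifts enter the Wnt values was not tested, nor was whether the mutation itself changes the germ cell markers.

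Few Wnt pathway genes were past 2-fold between the genotypes. Of the 36 measured genes, Wnt2b and Rspo1 passed the filter only through the mutant value and Fzd8 and Tcf7l1 only through the control value. Of the same 36, 17 lay above 0 and 19 below, beside 49.7% below 0 for all entries and 55.6% for protein-coding ones, and the median log2 difference was -0.02, beside 0.004 over all 17247 measured entries and -0.06 over the 12876 protein-coding ones. Lef1 was past 2-fold higher in the mutant, which is 2.78% of the measured genes beside 4.35% of all entries and 1.37% of protein-coding entries. Wls was past 2-fold lower, again 2.78%, beside 4.33% of all entries and 4.04% of protein-coding entries. The shares of genes past 2-fold were thus near the background. On the log2 scale 15 genes lay within 0.2 of 0, 7 between 0.5 and 1 above it and 4 between 0.5 and 1 below it. Lef1 and Wls, from opposite ends of the pathway, together with Wnt6 just short of 2-fold, had the largest differences of the 36 on this scale.

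**Figure D1:**
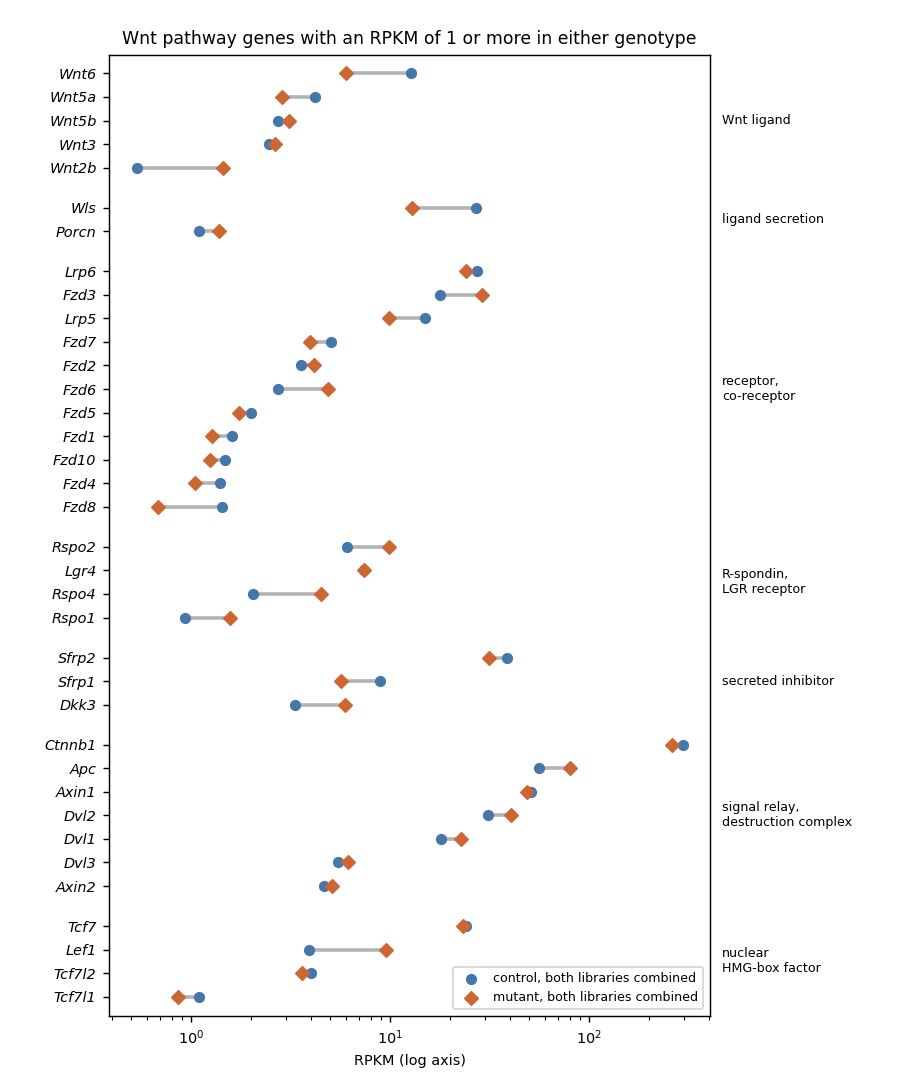
RPKM in control (circles) and mutant (diamonds) of the 36 measured Wnt pathway genes (at least 1 RPKM in a genotype), on a log axis, grouped by role; each point is 1 combined value of 2 libraries, so there are no error bars. Ctnnb1 stands far to the right at 295 and 261 RPKM, and the long connecting lines belong to Wnt6, Wnt2b, Wls, Lef1, Rspo4 and Fzd8.

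Start-site windows are shown for the 3 genes with the largest differences on the log2 scale. By plain ratio, Wnt2b (2.71-fold) and Rspo4 (2.20-fold) exceeded Wnt6 (2.12-fold) and Wls (2.08-fold). The windows are RefSeq sequences on GRCm38.p6 from 250 bases before to 50 bases after an annotated start, read on the gene's own strand (+ for all 3), with CpG dinucleotides in capitals. They lie at chr3:131110047-131110346 for Lef1, chr3:159839400-159839699 for Wls and chr1:74771642-74771941 for Wnt6.
Of 4 Lef1 windows, the one nearest the start of the deposited entry is printed; its start site lies 1271 bases inside that entry.
Lef1: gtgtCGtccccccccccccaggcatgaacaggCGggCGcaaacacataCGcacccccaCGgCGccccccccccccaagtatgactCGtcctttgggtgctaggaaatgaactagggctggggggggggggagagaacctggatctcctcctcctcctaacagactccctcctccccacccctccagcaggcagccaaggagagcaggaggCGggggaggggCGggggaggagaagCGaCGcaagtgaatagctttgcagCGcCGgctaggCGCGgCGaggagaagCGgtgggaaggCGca
Wls: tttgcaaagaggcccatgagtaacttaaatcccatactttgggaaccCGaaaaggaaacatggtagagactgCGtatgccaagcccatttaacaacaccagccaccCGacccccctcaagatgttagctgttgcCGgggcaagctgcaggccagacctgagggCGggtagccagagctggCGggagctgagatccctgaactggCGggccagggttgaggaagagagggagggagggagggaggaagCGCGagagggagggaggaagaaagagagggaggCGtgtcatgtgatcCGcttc
Wnt6: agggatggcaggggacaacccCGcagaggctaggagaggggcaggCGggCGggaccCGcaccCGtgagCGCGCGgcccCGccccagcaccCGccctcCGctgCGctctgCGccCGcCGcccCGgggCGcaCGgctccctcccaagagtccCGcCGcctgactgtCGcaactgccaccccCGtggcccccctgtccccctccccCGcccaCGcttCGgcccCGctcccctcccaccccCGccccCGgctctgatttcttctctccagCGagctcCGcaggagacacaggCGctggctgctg

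The Wnt6 window held 31 CpG dinucleotides, the Lef1 window 18 and the Wls window 11. Of the 59 genes, 39 had a RefSeq window outside chromosome 18, whose windows were not used. With 1 window taken per gene, their median was 30 CpG dinucleotides. The median was 7 over all 32851 windows, which include those of noncoding genes and can hold several per gene. The TCF/LEF core CTTTGA, searched on both strands, was found in 3 of the 39 windows (Dkk1, Fzd1 and Wnt11), a share of 7.69% beside 16.0% of all windows. The hexamer AGGTCA, which retinoic acid receptors bind in pairs, also searched on both strands, was found in 1 of the 39 (Wnt16), or 2.56% beside 16.3%. The background windows were not matched for base composition, which differed as the CpG medians show. These shares therefore cannot tell whether either motif is scarce in the Wnt windows. Neither run of letters stood in the 3 windows printed above, and this says nothing of sites elsewhere.

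Among the ligands, Wnt6 had the highest level in both genotypes and, of the 5 measured ones, the lowest mutant value relative to control. Wnt6, a ligand made by Sertoli cells in the testis (chromosome 1, 74771892 to 74785322, GRCm38), was at 12.8 RPKM in control and 6.04 in mutant. That is a 2.12-fold lower mutant value (about 1343 and 644 reads, interval 1.93 to 2.33), with a log2 difference of -0.97. The Sertoli marker sum was 2.13-fold lower in the mutant, and its part in the Wnt6 value was not tested. Wnt6 made up 47.8% of the summed RPKM of the 19 Wnt ligands in control and 29.6% in mutant.

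Wnt5a, a ligand of the beta-catenin independent branch, was at 4.20 RPKM in control and 2.86 in mutant, a 1.47-fold lower value. Its paralog Wnt5b was at 2.72 and 3.12 RPKM (about 313 and 366 reads, interval of the mutant-to-control ratio 0.985 to 1.34). In mutant the pair lay close together, and their order was not tested. Wnt3, a canonical ligand, was at 2.47 and 2.64 RPKM. Wnt2b, also canonical, was at 0.532 RPKM in control and 1.44 in mutant, 2.71-fold higher (about 93 and 257 reads, interval 2.13 to 3.47). At these low levels its log2 difference was 0.67, short of 2-fold, and it became 1.29 with a pseudocount of 0.1, 0.52 with quantile normalization and 0.31 after rescaling to the germ cell markers.

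The other 14 Wnt genes stayed under an RPKM of 1 in both genotypes. Wnt7b was at 0.908 RPKM in control and 0.336 in mutant (about 149 and 56 reads), and Wnt16 at 0.260 and 0.934 RPKM (about 18 and 65 reads). These are a 2.70-fold lower value for Wnt7b (interval 1.98 to 3.76) and a 3.60-fold higher one for Wnt16 (interval 2.09 to 6.38), and both genes were picked out after their values were seen. Wnt4, which acts in development of the female gonad, was at 0.920 and 0.849 RPKM. Wnt1 was listed at 0 in control and at 0.00786 RPKM in mutant, a value worth about 1 read. Summed over the 19 ligands, the level was 26.8 RPKM in control and 20.4 in mutant.

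The secretion factors differed from each other. Wls (Wntless), the carrier that brings lipid-modified Wnt proteins to the cell surface, was at 26.9 RPKM in control and 12.9 in mutant. The mutant value was 2.08-fold lower (about 3925 and 1921 reads, interval 1.97 to 2.20), with a log2 difference of -1.00, and the gene lies on chromosome 3 from 159839672 to 159938664. This placed Wls at the very edge of 2-fold, and quantile normalization moved it to -0.97. Interstitial fibroblast, peritubular myoid and Sertoli marker sums were lower by 2.37-fold, 2.23-fold and 2.13-fold in the same values, and their part in the Wls value was not tested. The fibroblast sum was mostly the Col3a1 entry. Median log2 differences of the fibroblast, myoid and Sertoli lists were -0.71, -0.76 and -0.86. Porcn, the enzyme that attaches the lipid, was low and similar, at 1.10 and 1.39 RPKM.

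Receptor genes were led by Fzd3 and the co-receptors, and they did not share a direction. Fzd3, a Frizzled receptor known from planar polarity and axon guidance, was at 17.9 RPKM in control and 29.0 in mutant, 1.62-fold higher. It was the second most abundant receptor gene in control, after Lrp6, and the most abundant in mutant. Fzd6, its close relative in planar polarity, was at 2.73 and 4.88 RPKM, 1.79-fold higher. These 2 genes had the only log2 differences above 0.5 among the 11 measured receptor genes, at 0.67 and 0.66, which became 0.02 and 0.12 after rescaling to the germ cell markers.

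The remaining Frizzled genes were low. Fzd7, a receptor of stem cells in several tissues, was at 5.06 and 3.96 RPKM, and Fzd2 at 3.59 and 4.17 RPKM. Fzd8 was at 1.43 RPKM in control and 0.679 in mutant, 2.11-fold lower as a plain ratio, with a log2 difference of -0.53. Fzd5 (1.99 and 1.75 RPKM), Fzd1 (1.61 and 1.27 RPKM), Fzd10 (1.49 and 1.25 RPKM) and Fzd4 (1.39 and 1.05 RPKM) each lay slightly below 0, and Fzd9 stayed under an RPKM of 1. Of the 8 Frizzled genes that passed the filter in both genotypes, 3 lay above 0 and 5 below, while the summed level of all Frizzled genes, with Fzd3 as the largest part, was 38.0 RPKM in control and 48.7 in mutant. That sum turned to a mutant-to-control ratio of 0.805 when mutant values were rescaled to the germ cell markers.

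The co-receptors LRP5 and LRP6 form the partner of Frizzled in canonical signalling. Lrp6 was at 27.4 RPKM in control and 24.2 in mutant, and Lrp5 at 15.0 and 9.94 RPKM, a 1.51-fold lower value. The Lrp6 to Lrp5 ratio was 1.82 in control and 2.44 in mutant.

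**Figure D2:**
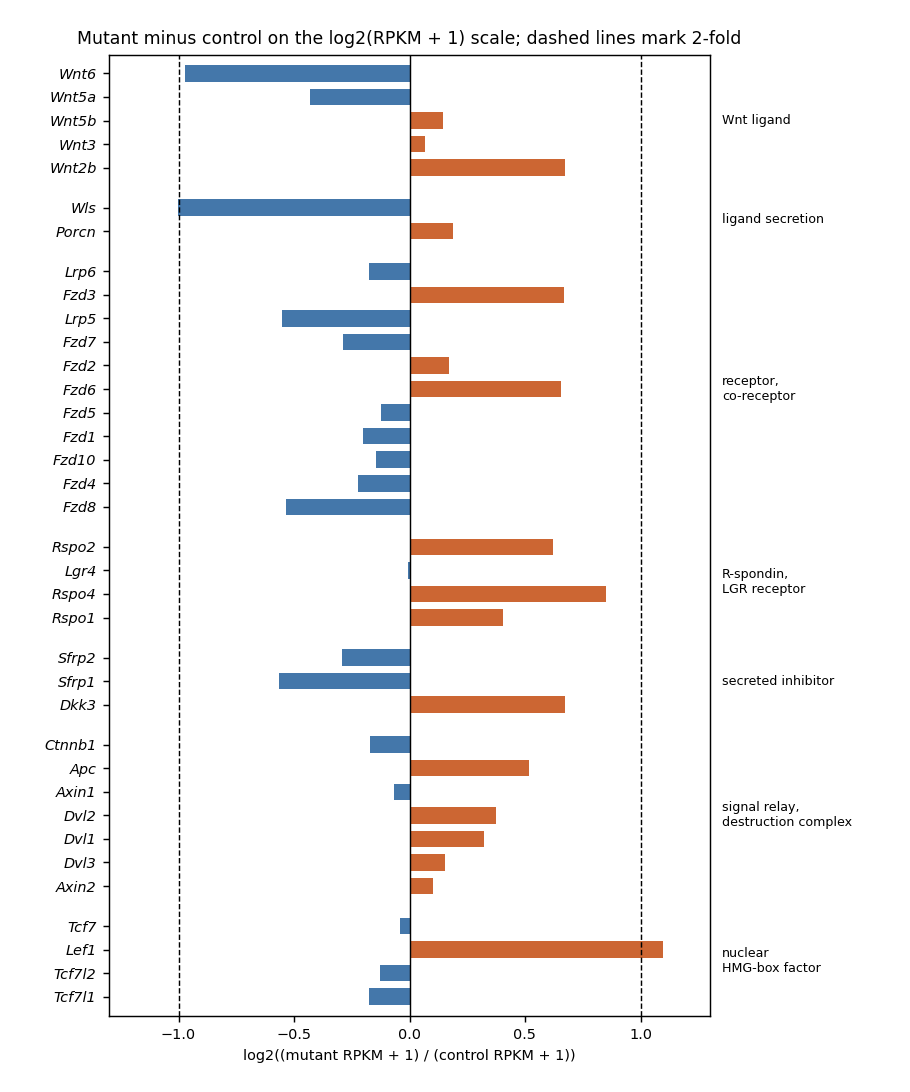
Log2((mutant RPKM + 1) / (control RPKM + 1)) of the 36 measured Wnt pathway genes, grouped by role; bars to the right are higher in mutant, and dashed lines mark 2-fold. Lef1 (1.10) passes the right line, Wls (-1.00) reaches the left one, Wnt6 (-0.97) stops short of it, and the 3 measured R-spondin genes all point to the right.

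The R-spondin genes had higher mutant values in the table, while the receptor gene Lgr4 was level. Rspo2 was at 6.05 RPKM in control and 9.84 in mutant, 1.62-fold higher. Rspo4 was at 2.04 and 4.49 RPKM, 2.20-fold higher (about 249 and 557 reads, interval 1.89 to 2.56) with a log2 difference of 0.85. Rspo1, which acts in the female gonad, was at 0.938 and 1.57 RPKM, and Rspo3 stayed at or under 0.104 RPKM. Rspo1 passed the filter on low values only through its mutant value. Once mutant values were rescaled to the germ cell markers, the log2 differences were 0.03 (Rspo2), 0.03 (Rspo1) and 0.33 (Rspo4). The median log2 difference of the 21 germ cell markers before rescaling was 0.65.

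Lgr4, the broadly expressed R-spondin receptor, was at 7.40 RPKM in control and 7.36 in mutant. Lgr5, known from intestinal stem cells, was at 0.391 and 0.752 RPKM and Lgr6 at 0.448 and 0.494 RPKM. The summed level of the 4 R-spondin genes was 9.11 RPKM in control and 16.0 in mutant.

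Secreted inhibitors were dominated by Sfrp2. Sfrp2, which binds Wnt proteins outside the cell, was at 38.8 RPKM in control and 31.4 in mutant, and made up 73.0% and 70.0% of the summed inhibitor level. Sfrp1 was at 8.91 and 5.70 RPKM, 1.56-fold lower. Dkk3, a divergent Dickkopf member, was higher instead, at 3.35 and 5.93 RPKM (1.77-fold). Dkk1, Dkk2 and Dkk4, with Sfrp4 and Sfrp5, were under an RPKM of 1 in both genotypes. Dkk1, the LRP6-binding antagonist, was at 0.143 and 0.109 RPKM, which corresponds to about 18 and 14 reads.

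The relay proteins and the destruction complex held the most abundant transcript of the set, and none of the 7 genes was past 2-fold. Ctnnb1 was at 295 RPKM in control and 261 in mutant, a log2 difference of -0.17 that became 0.03 with quantile normalization. Its entry pools Ctnnb1 with a microRNA symbol and spans 352743 bases, where GENCODE M21 gives the gene 31292 bases, and whether reads of other transcripts enter the value was not tested. Apc, the scaffold of the destruction complex, was at 56.0 and 80.6 RPKM, 1.44-fold higher, with a log2 difference of 0.52 that became -0.14 after rescaling to the germ cell markers. Axin1, the limiting scaffold, was at 51.2 and 48.9 RPKM.

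Axin2 is both a destruction complex member and a widely used readout of canonical signalling. It was at 4.68 RPKM in control and 5.11 in mutant, a log2 difference of 0.10. Dvl genes, whose proteins relay the signal from Frizzled, lay above 0 in all 3 cases. The Dvl2 entry, which pools 2 symbols, was at 31.1 and 40.6 RPKM, and the part of the other symbol was not tested. Dvl1 was at 17.9 and 22.7 RPKM, and Dvl3 at 5.46 and 6.18 RPKM. All 3 lay below 0 after rescaling to the germ cell markers, as did the whole group of 7, so their direction depends on the scaling.

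The nuclear factors showed a shift in composition. Lef1, an HMG-box factor that binds DNA with beta-catenin and is itself a known target of the pathway, was at 3.93 RPKM in control and 9.54 in mutant. The mutant value was 2.43-fold higher (about 700 and 1732 reads, interval 2.22 to 2.65), with a log2 difference of 1.10. Its entry lies on chromosome 3 from 131109026 to 131224356. Rescaling to the germ cell markers brought this to 0.50, still above 0 but no longer past 2-fold.

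The related factors did not follow Lef1. Tcf7 was at 24.0 and 23.3 RPKM, Tcf7l2 at 4.02 and 3.59 RPKM, and the repressor Tcf7l1 at 1.10 and 0.859 RPKM. The Tcf7 entry spans 336298 bases against 30644 in GENCODE M21, and the part of other transcripts in it was not tested. Lef1 was the third of the 4 factors by level in control, with 11.9% of their sum, and the second in mutant, with 25.6%. Tcf7 held 72.6% in control and 62.5% in mutant.

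**Figure D3:**
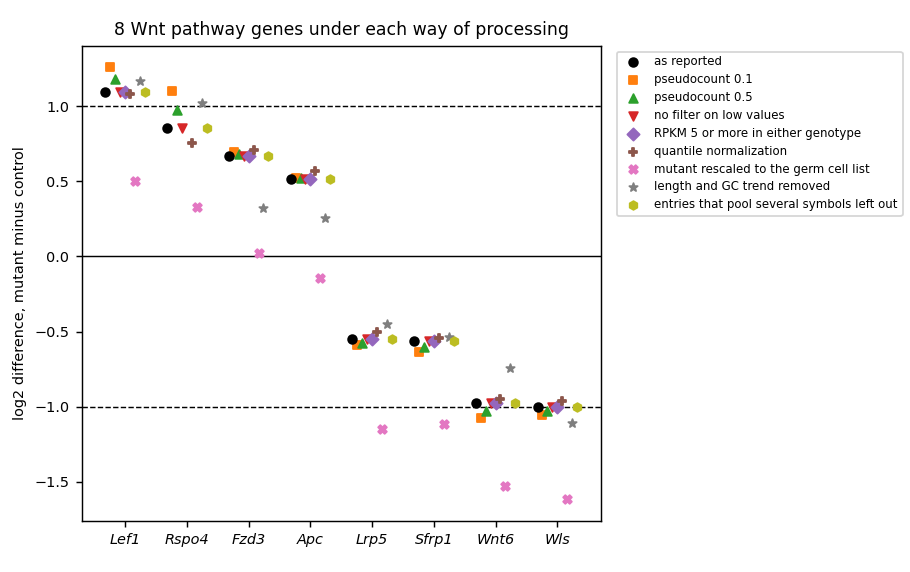
Log2 difference (mutant minus control) of 8 Wnt pathway genes under each way of processing; black circles are the values as reported, and dashed lines mark 2-fold. Lef1 ranges from 0.50 to 1.26 and Wls from -1.61 to -0.97, with the rescaling to germ cell markers (crosses) lowest for each of the 8 genes, and Apc the one that crosses 0.

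The summed levels of the Wnt roles can be read beside those of the marker lists. The secretion factors, set by Wls, had a 1.96-fold lower sum in the mutant, while the Leydig and macrophage marker sums were 2.86-fold and 2.77-fold lower. The ligand sum was 1.32-fold lower with Wnt6, and without it the other 18 ligands summed to 13.99 RPKM in control and 14.3 in mutant. R-spondin and LGR genes had a summed ratio of 1.42, and the germ cell markers 1.45. The group mixes unlike parts: R-spondin genes alone had a ratio of 1.76, while Lgr4 was level at 7.40 and 7.36 RPKM. Receptors (1.03), relay and destruction complex (1.01) and HMG-box factors (1.13) lay near 1, and each of these 3 ratios fell below 1 after rescaling to the germ cell markers, as did that of the R-spondin and LGR group (0.891). The ratio of the R-spondin genes alone was 1.10 after that rescaling.

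**Figure D4:**
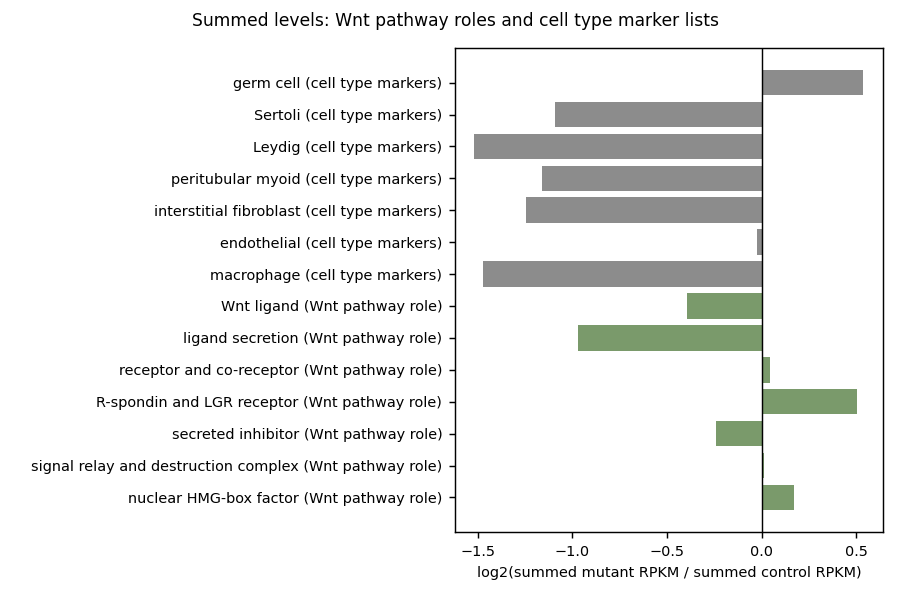
Log2 ratio of the summed mutant to the summed control RPKM for 7 cell type marker lists (grey) and 7 Wnt pathway roles (green), each from 1 combined value per gene and genotype. The ligand secretion bar, set by Wls, lies among the somatic marker lists to the left. The R-spondin and LGR bar and the germ cell bar point to the right. The former mixes R-spondin genes (summed ratio 1.76) with a level Lgr4.

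Other genes of the pathway, from lists grouped by function, were summarised in the same way. Of 82 listed genes outside the 59, 81 had an entry and 70 were measured, with 2 past 2-fold higher and 0 past 2-fold lower, beside 4.35% and 4.33% of all entries and 1.37% and 4.04% of protein-coding ones. After rescaling to the germ cell markers 0 were past 2-fold higher and 7 past 2-fold lower, with 60 of 70 below 0. Of all entries, 2.28% were past 2-fold higher and 19.2% past 2-fold lower under that rescaling, with a median of -0.56. Counts below 0 after it, here and in the lists that follow, thus largely reflect its 1 factor. Tle1 and Cthrc1 were the 2 past 2-fold higher before it. Tle1, a Groucho-type corepressor that TCF proteins recruit, was at 26.1 RPKM in control and 56.1 in mutant, a log2 difference of 1.07. Cthrc1, a secreted protein that helps Wnt ligands engage the Frizzled and ROR2 receptors, was at 2.18 and 7.70 RPKM, a log2 difference of 1.45. Neither was past 2-fold after rescaling to the germ cell markers, at 0.42 and 0.87.

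Before rescaling, 49.7% of all measured entries and 55.6% of protein-coding ones lay below 0. Kinases and other factors of the destruction complex lay above 0 for 11 of 15 and below for 4, with a median of 0.24. The most abundant were Tnks2, a tankyrase that marks AXIN for removal, at 155 and 187 RPKM, the casein kinase gene Csnk1a1 at 151 and 179 RPKM, and the deubiquitinase gene Usp34 at 86.5 and 118 RPKM. Gsk3b, the kinase that marks beta-catenin for destruction, was named after its values were seen, at 33.3 and 53.3 RPKM. Its paralog Gsk3a went the other way, at 19.1 and 15.7 RPKM. After rescaling to the germ cell markers 13 of the 15 lay below 0, and Gsk3b was at 0.007. Of 15 nuclear partners, 14 passed the filter in both genotypes and split into 7 above and 7 below 0, with the repressor gene Hbp1 at 155 and 249 RPKM, the corepressor gene Ctbp1 at 108 and 85.8 RPKM and Tle3 at 64.9 and 81.4 RPKM. After the same rescaling 3 nuclear partners lay above 0 and 12 below, with Hbp1 at 0.02 and Tle3 at -0.34.

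Among widely used beta-catenin targets, 13 were measured, of which Axin2, Lef1 and Tcf7 belong to the 59 as well. Rnf43 and Notum passed the filter only through the mutant value. Of the 11 that passed in both genotypes 7 lay above 0 and 4 below. The share of measured entries below 0 was 49.7%, or 55.6% among protein-coding ones. Lef1 was the 1 target past 2-fold. Ccnd1, the cyclin D1 gene, was at 40.0 RPKM in control and 32.0 in mutant. After rescaling to the germ cell markers 10 of the 13 lay below 0, so no direction of this list held across scalings. The median of all entries was then -0.56, so that count is not particular to the list.

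**Figure D5:**
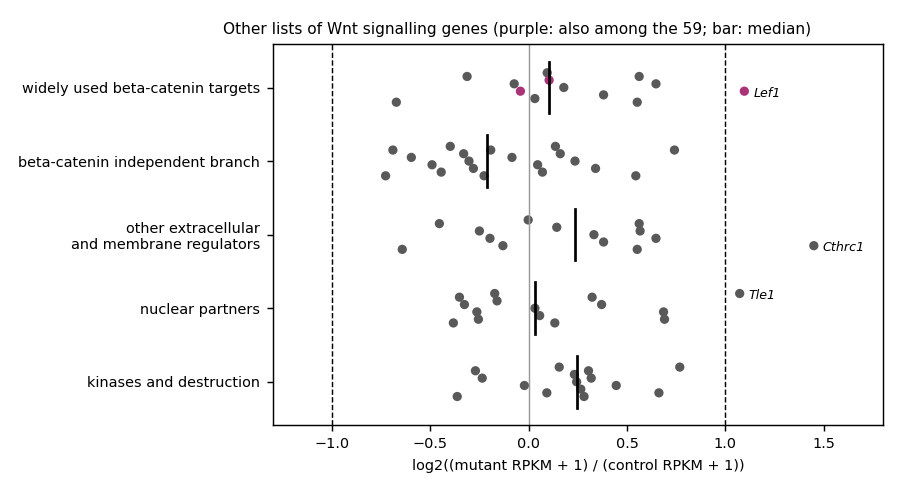
Log2((mutant RPKM + 1) / (control RPKM + 1)) of the measured genes in 5 further lists of Wnt signalling, each point 1 gene, with the list median as a black bar and 2-fold as dashed lines. Cthrc1, Lef1 and Tle1 lie beyond the right line, none lies beyond the left one, and genes shared with the 59 are purple.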

How the data were processed

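Expression was measured by RNA sequencing in 4 libraries of THY1-positive mouse spermatogonia. The submitters' processing notes list TopHat2 2.0.11 and GRCm38; which program counted reads, and on which annotation, are points not given in the sources used here. RPKM values were deposited by the authors with both libraries of a genotype combined in 1 column, per the file headers. How they were combined is not given, and combined values allow no test, so a 2-fold rule replaced one.

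Repeated symbols were represented by their most abundant entry. Log2 differences used a pseudocount of 1 RPKM, and plain ratios used no pseudocount. The filter for measured genes was 1 RPKM in either genotype. Values were computed in Python 3.11.15 with pandas 2.3.3 and numpy 2.4.6. Deposited starts are 0-based and were raised by 1. GENCODE M21 on GRCm38 gave biotype, transcript length and GC content. Of single-transcript genes with low values (up to 10 reads), 90.5% in control and 95.3% in mutant lay within 0.1 of a whole read, which gave the depth. Calling, rescaling and trend removal were run on simulated data with known changes, which checked the code only. For calling and rescaling these were copies of control values without noise, so their outcome was fixed in advance. Genes and lists were chosen with earlier results of these data known. All 36 measured genes are named by rule, as are other pathway genes past 2-fold and the 3 most abundant per list. Promoter windows on chromosome 18 were not used. Alternatives were other pseudocounts and filters, quantile normalization, rescaling to germ cell markers, removal of the length and GC trend, and leaving out pooled entries.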

Additional observations from a re-analysis of the deposited data

How the results depend on the processing

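Lef1 was past 2-fold higher in every setting except the rescaling to germ cell markers, and Wls past 2-fold lower in every setting except quantile normalization. With a pseudocount of 0.1 there were 3 genes past 2-fold higher (Lef1, Rspo4, Wnt2b) and 2 lower (Wls, Wnt6), and with 0.5 there were 2 lower. Of all entries, 8.46% were past 2-fold higher and 6.69% lower with 0.1, and 6.02% and 5.38% with 0.5. Quantile normalization left 0 lower, beside 4.32% of all entries. Rescaling to the germ cell markers moved the median of all entries to -0.56 and that of the Wnt genes to -0.46, with 0 higher and 4 lower (Lrp5, Sfrp1, Wls, Wnt6). Of all entries, 2.28% were then past 2-fold higher and 19.2% lower. With the length and GC trend removed, 2 were higher (Lef1, Rspo4), beside 3.52% of all entries, and the Wnt median was 0.0686. The number of Wnt genes below 0 ran from 19 as reported to 28 after the germ cell rescaling, and was 16 with the trend removed, 30 of 59 without a filter and 11 of 20 at an RPKM of 5 or more. The remaining settings (no filter, an RPKM of 5, pooled entries left out) left the counts past 2-fold at 1 and 1. Of all entries, 2.50% to 4.64% were past 2-fold higher in these settings and 2.49% to 5.67% lower. The cause of these changes was not tested. No paired analysis was possible because each genotype has 1 combined column, and for the same reason no library could be left out. Depth limits the low genes: the counting interval of the mutant-to-control ratio ran from 0.976 to 1.66 for Porcn and from 0.175 to 2.57 for Wnt3a (about 7 and 5 reads).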

Other observations

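Genes of the beta-catenin independent branch, which steers cell polarity and movement, lay below 0 for 12 of 20 measured members. This stands beside 49.7% of all entries and 55.6% of protein-coding ones. The branch had a median log2 difference of -0.21 and none past 2-fold, beside medians of 0.004 and -0.06. Of the small GTPases of the cytoskeleton, Rac1 was at 179 and 111 RPKM and Rhoa at 138 and 101 RPKM, while the kinase gene Mapk8 was at 51.9 and 61.3 RPKM. Celsr2, an adhesion receptor of planar polarity, was at 1.45 and 3.09 RPKM, and Ryk, a Wnt receptor tyrosine kinase, at 38.7 and 49.2 RPKM; these 2 were picked after their values were seen. After rescaling to the germ cell markers 18 of the 20 lay below 0, 4 of them past 2-fold, beside 19.2% of all entries past 2-fold lower. Of 14 other extracellular and membrane regulators measured, 12 passed the filter in both genotypes, and these split into 6 above and 6 below 0. Ptk7, a co-receptor, was level at 55.3 and 55.2 RPKM, the glypican gene Gpc3 was at 23.4 and 14.6 RPKM, and Kremen1, a Dickkopf receptor, at 6.40 and 9.95 RPKM. Znrf3 and Rnf43 are ubiquitin ligases that remove Frizzled and are held back by R-spondins. Their values were 4.88 and 7.62 RPKM (Znrf3) and 0.775 and 1.62 RPKM (Rnf43). Rnf43 passed the filter only through its mutant value, and both were picked after their values were seen. After rescaling to the germ cell markers 3 of these 14 regulators lay above 0 and 11 below. Znrf3 was then at -0.02, Kremen1 at -0.03 and Rnf43 at 0.18.

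Several Wnt genes lie as neighbours in the mouse genome, and the members of such pairs had unlike levels. Wnt6 and Wnt10a on chromosome 1 are 6193 bases apart, and Wnt10a was at 0.207 RPKM in control and 0.162 in mutant, far under Wnt6. Wnt3 and Wnt9b on chromosome 11 are 24328 bases apart, with Wnt9b at 0.246 and 0.190 RPKM. Wnt3a and Wnt9a, also on chromosome 11 and 16175 bases apart, were both low, with Wnt9a at 0.493 and 0.609 RPKM. Wnt1 and Wnt10b on chromosome 15, 11706 bases apart, were at or under 0.119 RPKM.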
